A study of Mus musculus with 9 samples.

Results

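CD14 and the Toll-like receptor pathway were examined in RNA of extracellular vesicles (EVs), the small membrane particles that cells shed with RNA and protein inside. The EVs came from mouse embryonic fibroblasts (MEFs), connective tissue cells of the mouse embryo, and there were 5 arrays of EVs from PBS-treated MEFs, given phosphate-buffered saline, and 4 arrays of EVs from control MEFs. The labels give no genotype or treatment time. They leave unsaid if PBS was given together with the electric pulses by which the study transfected cells. The 10 genes were chosen by name: Cd14, Tlr2, Tlr3, Tlr4, Myd88, Ticam1, Irak1, Irak2, Irak3 and Traf6. Of these, 9 were among the 14319 genes tested on the array, all but Tlr3. The 10 genes were read by 14 probes, with 3 members carrying more than 1 probe.

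CD14 is a surface protein that hands bacterial lipopolysaccharide to TLR4 and its partner MD-2. TLR2 recognises bacterial lipoproteins at the cell surface, and TLR3 recognises double-stranded RNA in endosomes. The adaptor MyD88 serves most of these receptors and TRIF (Ticam1) serves TLR3 and TLR4. MyD88 recruits kinases of the IRAK family, which pass the signal to the ubiquitin ligase TRAF6 and on to NF-kB and the MAP kinases. Fibroblasts are known to carry TLR4 and to answer lipopolysaccharide with cytokines.

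Each value is the brightness of a 60-base probe, given as a log2 distance from the 75th percentile that the array reached over probes detected on all 9 arrays. Since brightness also depends on the probe, levels were compared between groups and not between genes. The exception is the summed signal of marker lists, which mixes probes of different genes. A probe is called detected where the scanner software marked it well above background. The 9 arrays lay on 2 slides. On slide 1 were replicates 1 to 3 of the PBS-treated and replicates 1 and 2 of the control EVs, and slide 2 carried the others. Between 16492 and 19233 probes were detected per array in PBS-treated EVs and between 12584 and 15554 in control EVs (exact permutation test, two-sided, p = 0.0159, n = 5 and 4). The part of this difference in the results below was not tested. No source tells if replicates were grown as separate cultures, so the spread behind each p-value may be a technical one.

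The probes that the results turn on are shown here by the first 30 of their 60 bases, 5′ to 3′ in the sense of the transcript, with the position of the whole probe on mm9. They are the probes of 3 genes that moved with many spots or with a group below background (Tlr2, Tlr4 and Myd88), and all the probes of Irak1, whose result depended on the probe. Capitals mark runs of at least 16 bases that another probe of the array holds on either strand. The Irak1 probe from base 2031 also shares 16 bases with 1 other probe, in the part not shown.
Tlr2, chr3:83640344-83640403, minus strand: ccttggatgaaggccagcaggaagtgtttt
Tlr4, chr4:66503470-66503529, plus strand: ttgagaacattttggggaggaagaaaggtc
Myd88, chr9:119245322-119245381, minus strand: ggtttgcatcttcttattcctttcacgttc
Irak1 from transcript base 2031, chrX:71262475-71262534, minus strand: agggaggcactaccagagaatcaagtgtga
Irak1 from base 2249 of a variant transcript, chrX:71260779-71260838, minus strand: ttggatTTAGAACCTGAAAAGAgccaggga
Irak1 from transcript base 3495, chrX:71259533-71259592, minus strand: tatgctttcctaatgctttatatctctggg

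Cd14, Tlr4, Myd88 and Irak1 were higher in EVs of PBS-treated MEFs, Tlr2 and Irak2 were lower, and Ticam1, Irak3 and Traf6 did not pass the test. Tlr3 was not detected on any array. Of the 9 members tested, 4 were therefore higher and 2 lower at an adjusted p under 0.05 (limma, Benjamini-Hochberg adjustment over all genes). The background was high: 52.2% of the 14319 genes passed, 31.5% of the genes being higher and 20.7% lower in PBS-treated EVs. The median log2 difference, PBS-treated minus control, was 0.91 over the 9 members, the value of Irak3, and -0.02 over all genes. With so few members it moved: it was 0.48 and 0.34 without control replicate 1 or 2, 0.24 with the mean of each gene's probes and -0.18 with another background correction (normexp, offset 50) and the same scaling. Tlr4 entered the test only through its PBS-treated arrays and so had to differ, and without it 3 of 8 members were higher and 2 lower, with a median of 0.54. Groups did not overlap for 6 of the 9 members, against 47% of all genes. Of the 12 member probes that were tested singly, 6 passed, against 52.4% of all probes. The number of members that changed was thus near that of genes at large, and the values below are those of single genes.

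**Figure D1:**
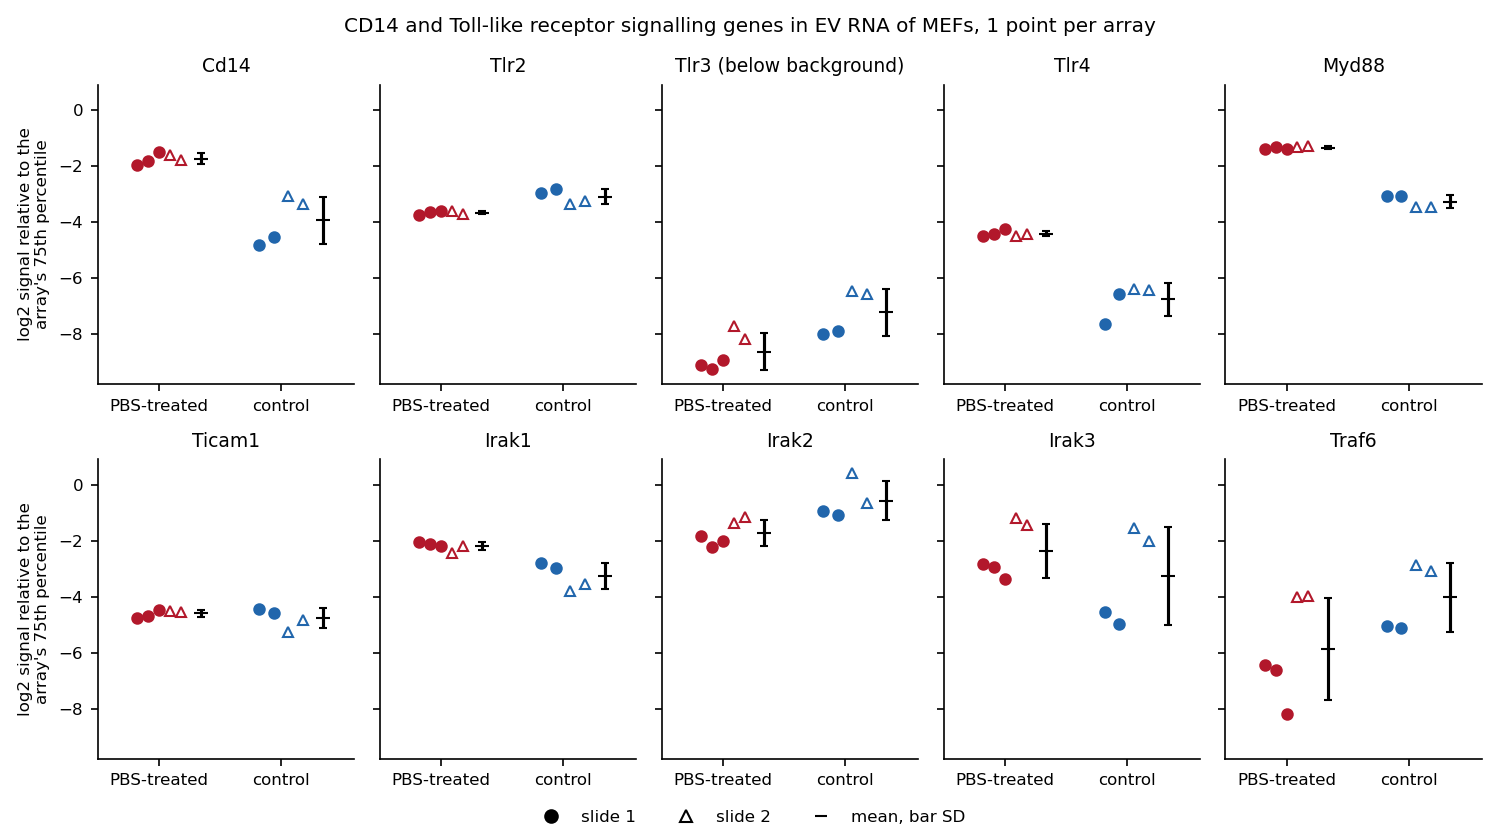
Log2 signal on the vertical axis, as distance from the 75th percentile of the array, of the 10 members, where each point is an array (filled circles, slide 1, and open triangles, slide 2) and the bar beside the points is the group's mean ± SD. The 5 PBS-treated arrays (left, red) lay above the 4 control arrays (right, blue) for Cd14, Tlr4, Myd88 and Irak1 and below them for Tlr2 and Irak2, and Tlr3 was below background throughout.

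The receptors split. Cd14 read -1.96, -1.82, -1.50, -1.59 and -1.78 in PBS-treated EVs (replicates 1 to 5), against -4.80, -4.51, -3.07 and -3.36 in control EVs (replicates 1 to 4). All PBS-treated arrays were above all control arrays, and the control arrays of slide 1 were the lowest. The log2 difference was 2.21 ± 0.36 (SE, adjusted p = 0.00101), or 4.61-fold. It was 2.90 on slide 1 and 1.53 on slide 2. RNA was pooled over many vesicles, so fewer vesicles of a kind and less RNA per vesicle, like fewer cells of a type and less RNA per cell, cannot be told apart.

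Tlr4, the signalling receptor for lipopolysaccharide, was detected on 5 of 5 PBS-treated arrays and on 0 of 4 control arrays. Its log2 values were -4.50, -4.43, -4.26, -4.48 and -4.41 in PBS-treated EVs, against -7.64, -6.56, -6.39 and -6.41 in control EVs. The control values lie in the background and give no level. With the scaling and background correction used here, Tlr4 was therefore at least 2.20-fold higher in PBS-treated EVs. This bound was set by the dimmest signals that still passed as detected on the control arrays, and other settings need not keep it. The fit gave an adjusted p of 0.000118 with limma, computed with the background values of the control arrays. On the linear scale before scaling, its probe read 49.04 to 101 intensity units on the PBS-treated arrays and 3.97 to 10.9 on the control arrays. The Tlr4 difference was 0.63 (log2) in the deposited value table and 0.69 with normexp and quantiles. With normexp and the same scaling, the Tlr4 difference was -0.18 (adjusted p = 0.561), where the median over all genes was -0.51.

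Ly96, which encodes MD-2, the protein that binds lipopolysaccharide beside TLR4, averaged -3.47 in PBS-treated and -4.71 in control EVs. The difference was 1.24 ± 0.36 (log2, SE, adjusted p = 0.0189), and every PBS-treated array was above every control array. Ly96 was detected on 5 of 5 PBS-treated arrays and on 2 of 4 control arrays. It did not pass without control replicate 3 (1.16, adjusted p = 0.0506), nor with quantile normalization, with the deposited value table or with either normexp setting. Normexp with the same percentile gave -0.11 (adjusted p = 0.654). Lbp, the plasma protein that carries lipopolysaccharide to CD14, differed by 0.44 ± 0.33 (log2, SE) and did not pass.

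Tlr2 moved the other way from Cd14. It read -3.75, -3.65, -3.60, -3.62 and -3.69 in PBS-treated EVs, against -2.95, -2.81, -3.36 and -3.24 in control EVs. The groups did not overlap, though the gap to the control arrays of slide 2 was small. The difference was -0.57 ± 0.14 (log2, SE, adjusted p = 0.00792), with -0.79 on slide 1 and -0.35 on slide 2, where it did not pass (adjusted p = 0.0753). The Tlr2 probe was printed on 10 spots of each array, and the SD between spots of 1 array had a median of 0.17 (log2, range 0.07 to 0.32). The direction rested on the scaling: with arrays scaled to the 7 spike-in probes, RNAs added before labelling, Tlr2 was higher by 0.71 (adjusted p = 0.00169), where the median of all genes was 1.26. It did not pass with the percentile of all probes (-0.17), quantile normalization (-0.38), the value table (-0.20) or normexp with quantiles (-0.19).

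Tlr3 was not detected on any of the 9 arrays, and no difference was tested. Of the 9 other Toll-like receptors on the array, Tlr5, Tlr6, Tlr7, Tlr8, Tlr11, Tlr12 and Tlr13 were likewise not detected on any array, and Tlr1 was detected on 1. Tlr9, an endosomal receptor for unmethylated CpG DNA, was detected on 4 of 5 PBS-treated and 2 of 4 control arrays. Tlr9 was lower in PBS-treated EVs by -1.19 ± 0.19 (log2, SE, adjusted p = 0.000858). It did not pass with the percentile of all probes (-0.79, adjusted p = 0.128), the value table (-0.20, 0.302) or normexp and quantiles (-0.19, 0.331), and with spike-in scaling its difference was 0.08 (adjusted p = 0.756). The receptors not detected on any array also read lower in PBS-treated EVs, by -0.93 (Tlr8) to -1.65 (Tlr11). With no filter on dim probes, the median over all genes was -1.11. The part of background in the Tlr9 difference was not tested.

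Among the adaptors, Myd88 rose and Ticam1 did not pass. Myd88 read -1.39, -1.31, -1.38, -1.33 and -1.28 in PBS-treated EVs, against -3.07, -3.07, -3.47 and -3.44 in control EVs. The groups stood well apart, with SDs of 0.05 in PBS-treated and 0.22 in control EVs. The difference was 1.92 ± 0.13 (log2, SE, adjusted p = 9.77e-06), or 3.79-fold, and it was 1.71 on slide 1 and 2.15 on slide 2. The Myd88 probe also had 10 spots per array, whose SD had a median of 0.11 (log2) and was at most 0.65.

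Ticam1 read -4.77, -4.69, -4.46, -4.50 and -4.52 in PBS-treated EVs, against -4.43, -4.59, -5.25 and -4.81 in control EVs. The groups overlapped and the difference was 0.18 ± 0.18 (log2, SE, adjusted p = 0.416). It was -0.13 on slide 1 and 0.52 on slide 2. Ticam1 was detected on 5 of 5 PBS-treated arrays and on 2 of 4 control arrays. With normexp and the same percentile it was lower (-0.65, adjusted p = 0.0172), and with spike-in scaling higher (1.46, adjusted p = 7.78e-05). Tirap, which bridges MyD88 to TLR2 and TLR4, differed by -0.41 ± 0.24 (log2, SE, adjusted p = 0.181). It passed as lower with slide as a block (-0.35, adjusted p = 0.0492) and with normexp and the same percentile (-0.69, 0.0460), and as higher with spike-in scaling (0.87, 0.0189). Ticam2, which bridges TRIF to TLR4, was not detected on any array.

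**Figure D2:**
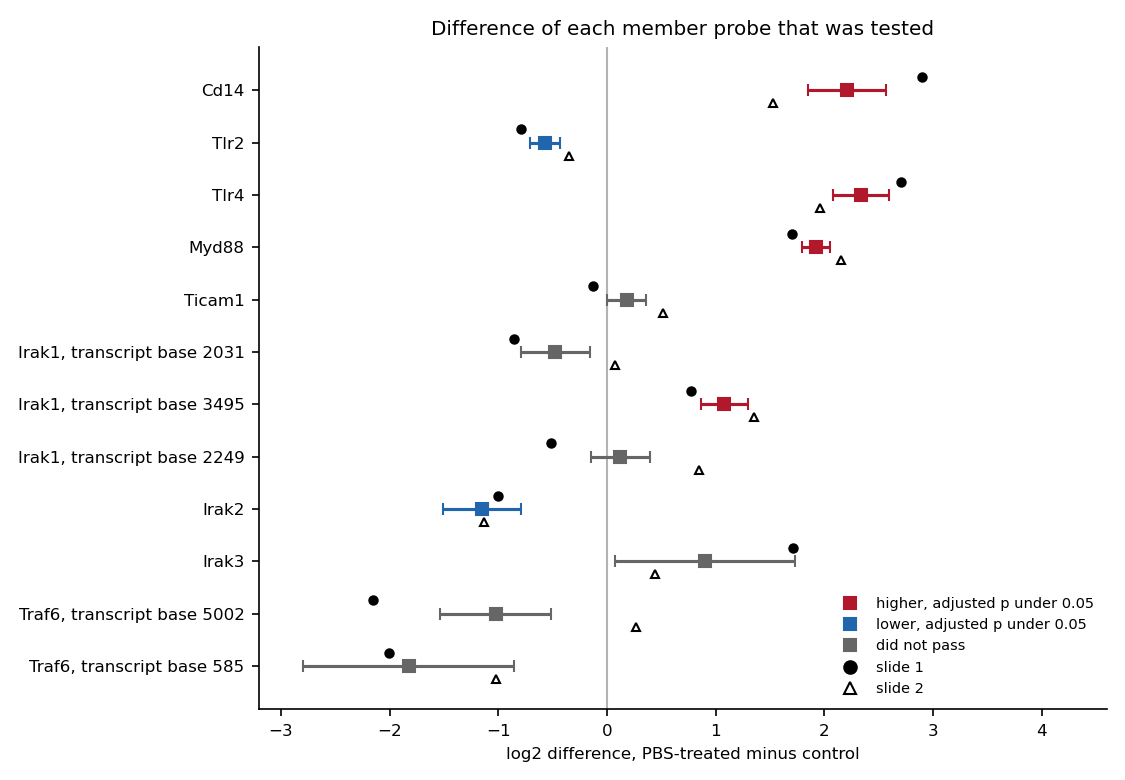
Log2 difference, PBS-treated minus control (horizontal axis), of the 12 member probes tested, with squares and bars for the fitted difference ± SE, circles for slide 1 and triangles for slide 2. Cd14, Tlr4, Myd88 and the Irak1 probe from transcript base 3495 lay above 0 on both slides, Tlr2 and Irak2 lay below 0 on both, and the other Irak1 probes, Ticam1 and the Traf6 probe from base 5002 differed in sign between slides.

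The IRAK kinases gave different readings by gene and by probe. Irak1, the kinase that leaves the receptor complex to bind TRAF6, was read by 3 probes. The brightest, from transcript base 3495, read -2.05, -2.12, -2.17, -2.43 and -2.19 in PBS-treated EVs, against -2.80, -2.96, -3.78 and -3.53 in control EVs. The groups did not overlap and the difference was 1.08 ± 0.21 (log2, SE, adjusted p = 0.00294).

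The other Irak1 probes did not pass. The probe from base 2031 differed by -0.48 ± 0.32 (log2, SE, adjusted p = 0.238) and that from base 2249 of the variant by 0.12 ± 0.27 (adjusted p = 0.714), both adjusted over all probes. Both had overlapping groups and were detected on all 5 PBS-treated arrays, and on 3 and 2 of the 4 control arrays. Taken as the mean of its 3 probes, Irak1 differed by 0.24 (adjusted p = 0.346). Irak1 therefore counts as higher by the probe from base 3495 alone, and whether the probes differ from each other was not tested.

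Irak2, which forms the signalling complex with MyD88 and IRAK4, was lower by the probe from transcript base 3079. This probe read -1.82, -2.23, -2.02, -1.35 and -1.14 in PBS-treated EVs, against -0.94, -1.09, 0.42 and -0.65 in control EVs. The highest PBS-treated array and the lowest control array lay close together, on different slides. The difference was -1.15 ± 0.36 (log2, SE, adjusted p = 0.0246), with -1.01 on slide 1 and -1.13 on slide 2. The call was lost without PBS-treated replicate 1, 2 or 3 (adjusted p = 0.0523, 0.0571 and 0.0536). It was also lost without the control arrays of slide 2 (-0.69, adjusted p = 0.121) and with 5 of the 6 other scalings and background corrections, of which spike-in scaling gave 0.13 (adjusted p = 0.806). It held with quantile normalization (-1.09, adjusted p = 0.0226).

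The other Irak2 probe, from base 1870, was detected on 2 PBS-treated and 0 control arrays and was too dim to test.

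**Figure D3:**
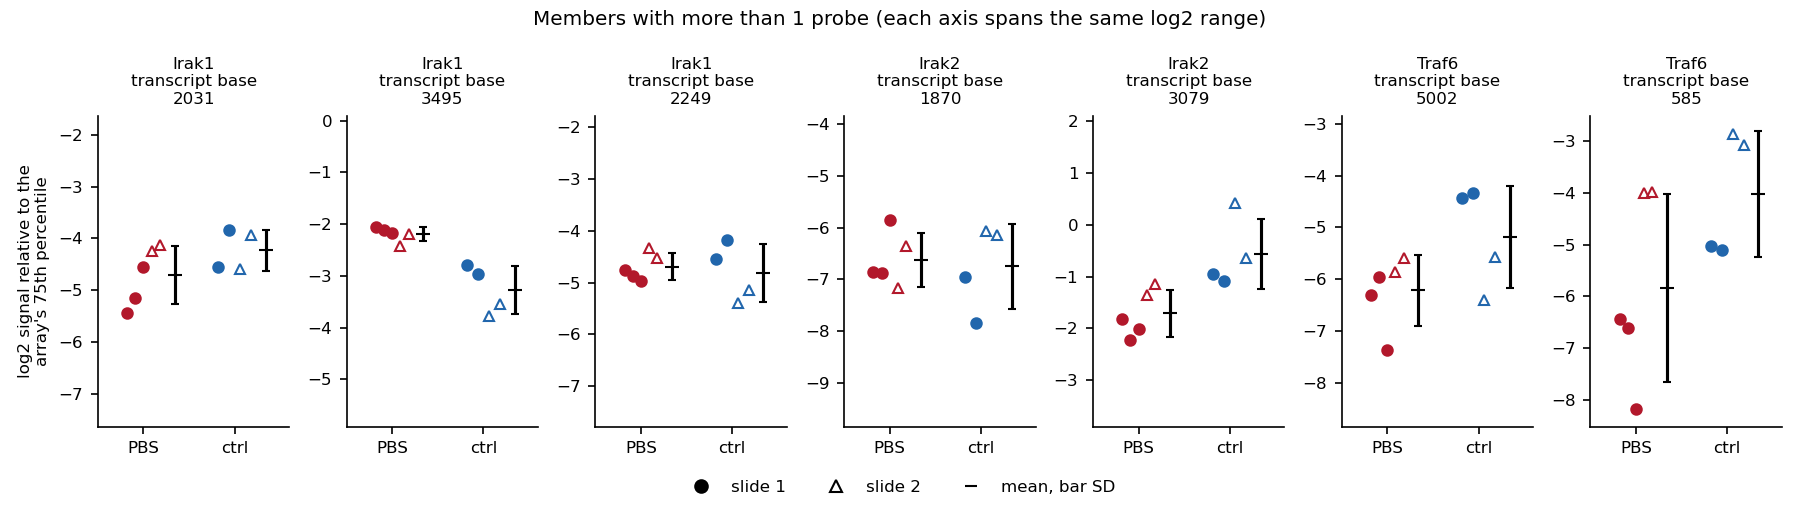
Log2 signal of each probe of Irak1, Irak2 and Traf6 (vertical axes that span the same log2 range, as distance from the 75th percentile of the array), where each point is an array (circles, slide 1, and triangles, slide 2) and the bar is the group's mean ± SD. Groups stood apart for the Irak1 probe from transcript base 3495 and the Irak2 probe from base 3079 and overlapped for the other 5 probes.

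Irak3, also known as IRAK-M and an inhibitor of the pathway in macrophages, differed more between slides than between groups. On slide 1 it read -2.84, -2.92 and -3.35 in PBS-treated EVs, against -4.53 and -4.96 in control EVs. On slide 2 it read -1.19 and -1.45 in PBS-treated EVs, against -1.53 and -1.999 in control EVs. PBS-treated EVs were above control EVs on each slide, by 1.71 and 0.44 (log2), while the groups overlapped over both slides. The fit without slide gave 0.91 ± 0.83 (log2, SE, adjusted p = 0.382), and with slide as a block the difference was 1.13 (adjusted p = 0.00647). On slide 2 alone it did not pass (adjusted p = 0.163).

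Irak4, the kinase that acts upstream of the other members of its family, was detected on 2 PBS-treated and 0 control arrays and was not tested. Tollip, which binds IRAK1 at rest, differed by 0.25 ± 0.24 (log2, SE, adjusted p = 0.394). It passed as higher with the mean of its probes (0.59, adjusted p = 0.0323), on slide 2 alone (0.68, 0.0488) and with spike-in scaling (1.53, 0.000273). The direction of Tollip turned under 4 other alternatives.

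Traf6 had 2 probes, and neither passed. The probe from base 585 of a cDNA clone assigned to Traf6 split by slide like Irak3. On slide 1 it read -6.43, -6.62 and -8.18 in PBS-treated EVs, against -5.03 and -5.11 in control EVs. On slide 2 it read -4.01 and -3.98 in PBS-treated EVs, against -2.87 and -3.07 in control EVs. PBS-treated EVs were below control EVs on each slide, by -2.0045 and -1.02 (log2). The fitted difference was -1.82 ± 0.97 (SE, adjusted p = 0.149), and -1.56 with slide as a block (adjusted p = 0.00587). The probe from base 5002 of the reference transcript differed by -1.02 ± 0.51 (log2, SE, adjusted p = 0.125), with -2.15 on slide 1 and 0.26 on slide 2, and was detected on 3 PBS-treated and 2 control arrays.

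With slide as a block, 8 of the 9 members passed, 5 higher and 3 lower, as Irak3 and Traf6 were added, and 69.7% of all genes passed. Among the members, Cd14 and Myd88 kept their direction and their call under all 28 alternatives tried. Cd14 ranged between 1.06 and 3.48 (log2) under them and Myd88 between 1.13 and 3.20. Irak1 was lost only with the mean of its probes, but every other alternative read it by its brightest probe, and its other probes did not pass. Tlr4 was lost only with normexp and the same percentile. It entered the test only through its PBS-treated arrays, so its repeated calls were set by the filter and say nothing of stability. The lower calls were less stable: Tlr2 did not pass in the same direction under 8 alternatives and Irak2 under 11. The split of 4 higher and 2 lower members became 4 and 0 with the percentile of all probes, with the value table and with normexp and quantiles, 4 and 1 with quantile normalization, 3 and 2 with normexp and the same percentile, and 7 and 0 with spike-in scaling. The shares of all genes moved too: 31.5% higher and 20.7% lower became 62.3% and 5.03% with spike-in scaling, 13.2% and 32.5% with normexp and the same percentile, 24.6% and 9.46% with the percentile of all probes, and 29.3% and 14.8% with quantile normalization. These shares were 26.1% and 13.3% with the value table and 26.0% and 13.4% with normexp and quantiles.

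**Figure D4:**
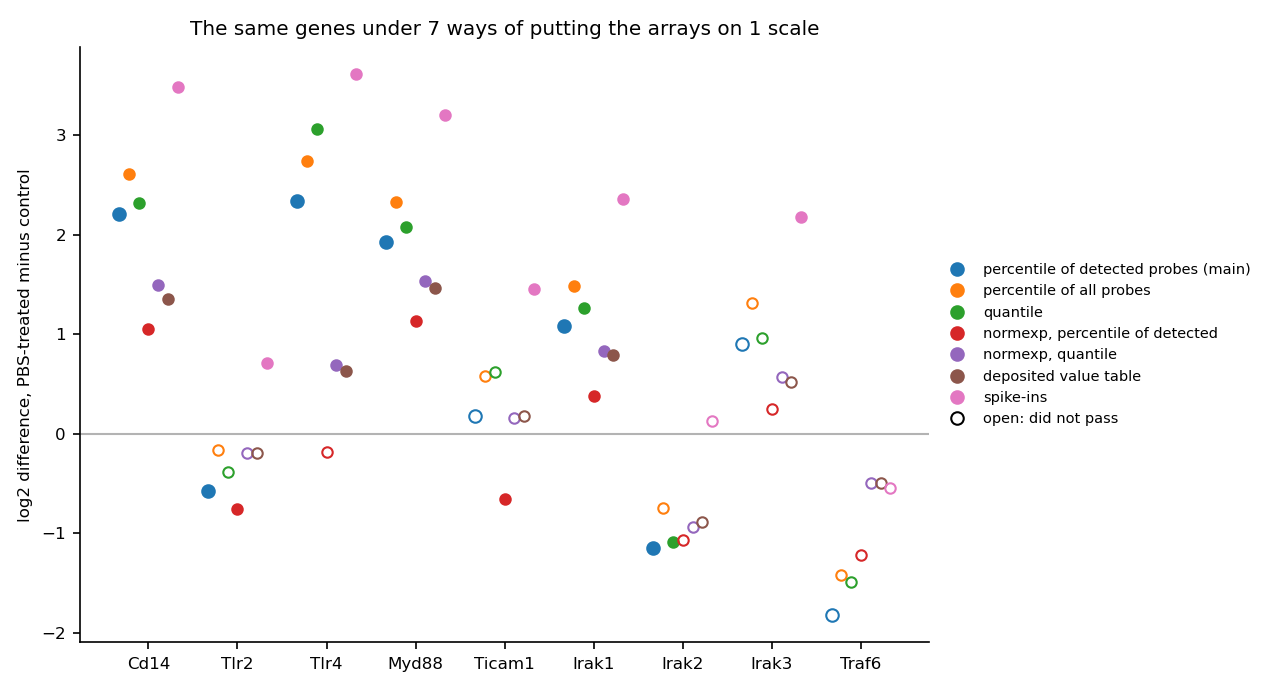
Log2 difference, PBS-treated minus control (vertical axis), of the 9 members tested, under 7 ways of bringing the arrays to 1 scale (colours), with filled points where the adjusted p was under 0.05 and open points where it was not. Cd14, Myd88 and Irak1 were above 0 and filled under all 7, while Tlr2 and Irak2 crossed to above 0 with spike-in scaling.

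Among the other genes of the pathway, the NF-kB genes Nfkbia and Nfkb1 and the kinase genes Map2k6 and Ripk1 had the highest fitted rises. The inhibitor Sigirr had the deepest fitted fall, though it was detected on only 2 of 5 PBS-treated arrays. Of 51 other pathway genes, 33 were tested, of which 11 were higher, 4 lower and 18 did not pass, with a median difference of 0.37 (log2). The share that passed, 15 of 33, is to be read against the 52.2% of all genes. Of the 11 higher genes, Map3k7, Chuk, Rela, Nfkbia and Irf3 were detected on all 9 arrays. Nfkb1, Tab3, Map2k6, Ripk1, Peli1 and Ly96 were detected on 5 PBS-treated arrays but on 1 or 2 control arrays. They met the filter of 4 arrays through the PBS-treated group alone, so their differences rest partly on background values. Nfkbia encodes the NF-kB inhibitor IkB-alpha and is itself an NF-kB target. Nfkbia read 0.88, 0.89, 1.16, 0.78 and 0.86 in PBS-treated EVs, against -1.36, -1.21, -1.42 and -1.52 in control EVs. It rose by 2.29 ± 0.12 (log2, SE, adjusted p = 3.58e-06), by 2.27 on slide 1 and 2.29 on slide 2.

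Nfkb1, the NF-kB subunit p105/p50, rose by 2.28 ± 0.28 (log2, SE, adjusted p = 0.000218). It was detected on 5 PBS-treated arrays and 1 control array, and with normexp and the same percentile it gave -0.04. The subunit Rela rose by 0.50 ± 0.10 (adjusted p = 0.00252), near the size of the move of the all-gene median to -0.51 with normexp and the same percentile. Chuk, the kinase IKK-alpha, rose by 1.16 ± 0.23, while Ikbkb and Ikbkg, its partners in the IKK complex, differed by 0.45 ± 0.25 and 0.24 ± 0.19 and did not pass. Map3k7, the kinase TAK1 that acts next after TRAF6, rose by 1.24 ± 0.19 and its partner Tab3 by 1.08 ± 0.24. Map2k6, an activator of p38, rose by 2.11 ± 0.17 (adjusted p = 2.56e-05). Of the 4 control arrays, Tab3 was detected on 1 and Map2k6 on 2.

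Ripk1, a kinase that binds TRIF and TNF receptor complexes, rose by 2.02 ± 0.33 (log2, SE, adjusted p = 0.00101), though normexp with the same percentile gave -0.01. Peli1, a ubiquitin ligase of IRAK proteins, rose by 1.91 ± 0.27 (adjusted p = 0.000447). Ripk1 and Peli1 were each detected on 2 of 4 control arrays. Irf3, the transcription factor of the TRIF branch, rose by 0.47 ± 0.11 (adjusted p = 0.00797), also near the size of that move of the median to -0.51. Tnfaip3, which encodes the deubiquitinase A20, differed by 1.03 ± 0.39 and did not pass (adjusted p = 0.0558), but passed with slide as a block (0.98, adjusted p = 0.0395). It was detected on 5 PBS-treated and 2 of 4 control arrays, so its difference also rests partly on background values.

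The 4 pathway genes that were lower include the inhibitor Sigirr and the adaptor Traf3. Sigirr encodes a receptor of the interleukin-1 receptor family that restrains TLR and interleukin-1 signalling. Sigirr read -6.81, -6.68, -6.15, -5.56 and -5.59 in PBS-treated EVs, against -2.57, -2.31, -4.45 and -2.63 in control EVs. The groups did not overlap, and control replicate 3 lay apart from the other control arrays. The difference was -3.17 ± 0.48 (log2, SE, adjusted p = 0.000703), with detection on 2 of 5 PBS-treated and 3 of 4 control arrays. It was -4.11 on slide 1 and -2.04 on slide 2, where it did not pass (adjusted p = 0.0640). Sigirr gave -1.18 in the value table, -1.19 with normexp and quantiles and -1.98 with normexp and the same percentile, and passed in each. The part of background in its difference was not tested. Traf3, which links TRIF to the interferon branch, fell by 1.98 on the log2 scale (± 0.20 SE, adjusted p = 7.80e-05) and was lower in all 5 PBS-treated arrays than in any control array. Peli2, a relative of Peli1, differed by -0.79 ± 0.24 (adjusted p = 0.0221), with overlapping groups. It was detected on 5 of 5 PBS-treated and 2 of 4 control arrays, and the part of background in its difference was not tested. Peli2 was lost on slide 2 alone (-0.24, adjusted p = 0.371), without PBS-treated replicate 2 or control replicate 1 or 2 (adjusted p = 0.0534, 0.0580 and 0.0576) and under 5 other alternatives, and gave 0.48 with spike-in scaling. Tlr9 was the other. With normexp and the same percentile, 6 pathway genes were higher and 7 lower, with spike-in scaling 27 and 2, and with the percentile of all probes 10 and 2, to be read against the shares of all genes under the same settings.

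**Figure D5:**
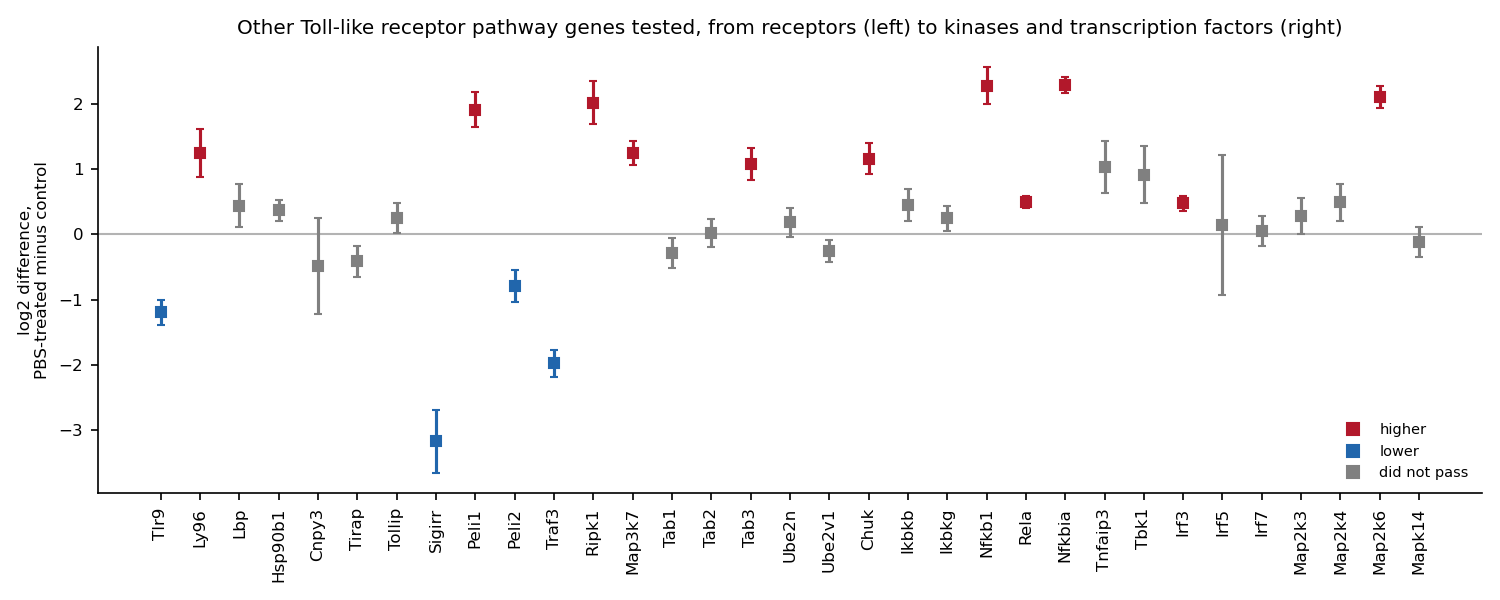
Fitted log2 difference ± SE, PBS-treated minus control (vertical axis), of the 33 other pathway genes tested (horizontal axis), ordered from receptors through adaptors and ubiquitin enzymes to kinases and transcription factors. The 11 genes in red were higher and the 4 in blue lower at an adjusted p under 0.05, with Nfkbia and Nfkb1 at the top and Sigirr at the bottom.

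Cd14, Tlr2 and Tlr4 are also abundant in macrophages, so markers of other cells were read on the same arrays. Of 14 macrophage and leukocyte markers, 6 were not detected on any array, among them Adgre1 and Spi1, and Ptprc was detected on 1 PBS-treated array. Of the 5 tested, 0 were higher and 2 lower in PBS-treated EVs, against 31.5% higher and 20.7% lower of all genes. With so few tested, the counts say little about the list. The lower ones were the integrin Itgam (-1.30 ± 0.25 log2, SE, adjusted p = 0.00248) and the receptor Csf1r (-2.70 ± 0.84, adjusted p = 0.0245). With spike-in scaling, Itgam gave -0.02 and Csf1r -1.42 and neither passed. Itgam was also lost with the percentile of all probes (adjusted p = 0.146) and on slide 1 alone (0.0625), and Csf1r was lost in 5 of the 9 fits without 1 array. The summed linear signal of the tested markers, in units of the array's percentile, was 0.87 to 1.76 in PBS-treated and 2.16 to 3.31 in control EVs. Most of it was Itgam, and without Itgam the sum was 0.07 to 0.57 in PBS-treated and 0.16 to 0.86 in control EVs. Such sums also depend on how bright each probe is. The part of such cells in the Cd14 result was not tested.

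Of 10 fibroblast markers, 9 were tested, of which 2 were higher and 3 lower, against 31.5% higher and 20.7% lower of all genes. Their summed signals were 12.2 to 14.4 in PBS-treated and 11.4 to 13.9 in control EVs. Dcn, the matrix proteoglycan decorin, was higher by 2.03 ± 0.29 (log2, SE, adjusted p = 0.000475). Lum, the related lumican, was at least 1.17-fold higher, being detected on 4 PBS-treated and 0 control arrays. Like Tlr4, Lum entered the test only through its PBS-treated arrays, so its direction was set by the filter. Without Lum, Dcn was the only fibroblast marker called higher. Col1a1, Pdgfra and Fn1 were lower (-1.35 ± 0.18, -1.95 ± 0.26 and -1.17 ± 0.15). Col1a1 did not pass with spike-in scaling (-0.07, adjusted p = 0.719) or with the percentile of all probes (0.143). Col3a1 did not pass (-0.44 ± 0.23), and Thy1 was not detected on any array. Of 4 endothelial markers, 2 were tested and both were lower, against 20.7% of all genes, which is too few to read as a result about the list. None of the 4 epithelial markers could be tested. The endothelial Kdr was lower by -1.43 ± 0.23 (log2, SE, adjusted p = 0.00101) and was detected on all arrays. Pecam1 differed by -1.81 ± 0.67 (adjusted p = 0.0477), with overlapping groups. Pecam1 was detected on 1 PBS-treated and 4 control arrays, so it met the filter through its control arrays alone.

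Genes were ranked by the likeness of their values to those of Cd14 over the 9 arrays. Gm, Rik and LOC symbols and genes not found in the RefSeq table of mouse genes were left out. The genes most like Cd14 were then Csf3 (Pearson r = 0.996), which encodes the granulocyte growth factor G-CSF, Map7d1 (0.994), Serpina3f (0.993), Nos2 (0.991), the inducible nitric oxide synthase, and Rnd1 (0.991). These r are a description over 9 arrays that share the same groups and slides. Csf3 and Serpina3f were not detected on any control array, so their r and rank rest on background values there. Nos2 was detected on 2 of 4 control arrays, whereas Map7d1 and Rnd1 were detected on all 9 arrays.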

How the data were processed

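Total RNA of EVs from 5 PBS-treated and 4 control MEF samples was purified, labelled with cyanine 3 and hybridised, 1 sample per array, to a 1-colour Agilent 8x60K mouse design, per the labels. The authors scanned the arrays and extracted them with Agilent Feature Extraction 10.7.3.1, and the deposited scanner files hold the background-subtracted and the mean intensity of each spot on a linear scale. The deposited value table, in log2, had a median of 5.97 on each array and the same rank order of spots as the mean signal (Spearman 1.0). Its centring and scaling by the authors are not given in the sources used, and it served as an alternative.

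Control and non-uniform spots were left out, spots of 1 probe were averaged, and log2 of the processed intensity was set relative to each array's 75th percentile over the 8422 of 55681 probes well above background on all arrays. Probes well above background on at least 4 arrays were tested two-sided with lmFit and eBayes of limma 3.58.1 in R 4.3.3, with 1 probe per gene (highest mean), and p-values were adjusted by Benjamini-Hochberg over 14319 genes, or over 17765 probes where a probe is given singly. Of the probes, 26413 had an accession found in the RefSeq table of mouse genes. Where a group had no array above background, a fold is a bound, taken against the dimmest detected signal of each array, or the probe's own signal where higher. Probe sequences and mm9 positions are those of the array's annotation. The sequence of 1 Irak2 probe is not reported here. The script was tested on simulated data. No spot was saturated, and 0 value columns were left unmapped. The number of arrays limits the precision.

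The members, the pathway and marker lists, the tests and the rule for named genes were chosen with earlier results of these data known. Named genes were all members, of the pathway list the 5 called genes with the largest rise and the 5 with the largest fall (4 fell), Ly96, Tlr6, Irak4, Tirap, Ticam2, Tollip and Tnfaip3, 8 markers, and the 5 genes most like Cd14. The ranking by likeness to Cd14 left out Gm, Rik and LOC symbols and genes not in the RefSeq table. Any other gene was named with its values in view. Alternatives were other scalings, background corrections, filters, the mean of a gene's probes, weights per array, a trended robust fit, the methods' test with equal variances, slide, a replicate block and leaving out arrays. Python 3.11.15, numpy 2.4.6, pandas 2.3.3, scipy 1.17.1 and matplotlib 3.10.9 were used.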

Additional observations from a re-analysis of the deposited data

Results flagged for a closer look

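In 4 of the 74 groups of arrays tested, the array at 1 end lay far from the others of its group for the group's range, and chance flags about 1 in 20 such groups. Tlr4 in control EVs was lowest in replicate 1 (-7.64, the others between -6.56 and -6.39), where the probe was below background on all 4 arrays. Sigirr in control EVs was lowest in replicate 3 (-4.45, the others between -2.63 and -2.31), and Tnfaip3 in control EVs was also lowest in replicate 3 (-6.35, the others between -4.57 and -4.36). Without control replicate 3, Tnfaip3 was higher in PBS-treated EVs by 0.55 (log2, adjusted p = 0.00522). Its probe was detected on 2 of the 4 control arrays. Pdgfra in PBS-treated EVs was lowest in replicate 3 (-2.07, the others between -1.45 and -1.33).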

How the results depend on the processing

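Besides the members' values already given, 7477 genes passed over the array (4513 higher, 2964 lower), against 4883 with the percentile of all probes (3529 and 1354) and 4507 of 7212 genes detected on all arrays. Spike-in scaling gave 8925 higher and 720 lower, and normexp with the same percentile 1886 and 4650. The median difference over all genes was 1.26, -0.51, 0.39 and 0.22 with spike-ins, normexp with the same percentile, the percentile of all probes and quantile normalization. The pathway list had 29 called genes with spike-ins and 6 of 13 where detection on all arrays was asked. Leaving out 1 array at a time gave 6658 to 7370 genes, 5 to 6 members and 14 to 16 pathway genes. Deviations of same-numbered arrays correlated at 0.70, 0.73, -0.54 and 0.74. Replicates 1, 2 and 4 correlated best with their own number, while the arrays of replicate 3 lay on different slides, so the numbers were not taken as pairs. With the replicate block 7443 genes, 5 members and 14 pathway genes passed, and Tlr2 had an adjusted p of 0.0514. Leaving out population outlier spots as well, chosen after seeing the data, gave 7476 genes and 6 members. The other directions that turned were, with normexp and the same percentile, Nfkb1 (-0.041), Ripk1 (-0.010), Tollip (-0.13), Tnfaip3 (-0.16), Csf3 (-0.33), Serpina3f (-0.042), Ticam1 (-0.65), Tlr4 (-0.18) and Ly96 (-0.11). With spike-ins they were Tlr2 (0.71), Irak2 (0.13), Tlr9 (0.083), Peli2 (0.48), Tirap (0.87) and Col3a1 (0.83). With normexp and quantiles Tirap gave 0.032 and Col3a1 0.0037, and Col3a1 gave 0.033 in the value table. With array weights, on slide 1 alone and without the control arrays of slide 2, Ticam1 gave -0.11, -0.13 and -0.080 and Tollip -0.15, -0.17 and -0.16. The causes were not tested.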
